A study of Mus musculus with 6 samples.

Results

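The values described here are the mRNA levels of 10 genes of maternal mRNA storage and translational control in metaphase II (MII) oocytes of ICR mice aged 42-45 weeks. Of the 60193 genes and loci listed with their FPKM (fragments per kilobase of transcript, scaled to the depth of the library), these 10 were chosen by name, and each was found once under an Ensembl identifier. They were the 3′ UTR-binding proteins *Cpeb1*, *Cpeb4* and *Dazl*, the ribonucleoprotein genes *Ybx2*, *Lsm14b*, *Zar1* and *Zar1l*, and the repressor genes *Patl2*, *Ddx6* and *Eif4enif1*. The comparison asks whether oocytes matured in culture differ from ovulated ones in the messages for this machinery. In the *in vitro* maturation (IVM) group, germinal vesicle oocytes of PMSG-primed mice were stripped of cumulus cells and cultured in M16 medium for 12 h. In the *in vivo* maturation (IVO) group, PMSG was followed by hCG, and ovulated oocytes were collected 14 h later and freed of cumulus cells with hyaluronidase. Each group had 3 samples, and each sample pooled 20 MII oocytes from 3 mice. The groups therefore differ in culture, in hCG and in timing (12 h in culture, 14 h after hCG). They also differ in the presence of cumulus cells during maturation and in the way these cells were removed. These differences cannot be told apart. FPKM is relative to the library, so the amount of RNA per oocyte was not measured.

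A growing oocyte makes and stores messages that it will translate only after transcription has stopped. Stored messages are held in ribonucleoprotein particles with short poly(A) tails, and the cap is kept from the initiation machinery. During meiotic maturation, selected messages gain a longer tail and are translated, while many others lose their tail and are later degraded. One of the letters that mark a message for this control is the cytoplasmic polyadenylation element (CPE) in the 3′ UTR, which is bound by CPEB1 and its relatives.

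The messages of the 10 genes can carry such elements themselves, so the 3′ UTRs of their canonical transcripts were read in the GRCm39 reference. The letters TTTTAT and TTTTAAT were searched as CPEs on the transcribed strand, and the letters AATAAA and ATTAAA as poly(A) signals. Distances were taken from a CPE to the next poly(A) signal that did not overlap it. A CPE was present in 7 of the 10 genes and in 67.3% of the 10159 tested protein-coding genes with a 3′ UTR. A CPE at most 100 bases before a poly(A) signal was present in *Cpeb1*, *Cpeb4* and *Eif4enif1*, 3 of the 10, and in 36.3% of the protein-coding genes. The sites below are those of the 5 genes whose levels differed most between the groups, chosen after their values were seen, written 5′ to 3′ with the CPE in capitals. For *Cpeb1* and *Cpeb4* the site closest to a following poly(A) signal that it does not overlap is shown, and for the others the last one in the 3′ UTR.
Cpeb1: gttgatagaagtTTTTAATcacagtcacag
Cpeb4: gtaattctttgtTTTTAATtgcagacatta
Dazl: aagtcaaaattcTTTTATgtcaccaagtca
Ybx2: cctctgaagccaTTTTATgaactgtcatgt
Ddx6: taagccatgttaTTTTAATtggatactttt
The *Cpeb1* site lies at chr7:80997224-80997253 on the minus strand, 40 bases before an ATTAAA. The *Cpeb4* site lies at chr11:31884895-31884924 on the plus strand, 7 bases before an ATTAAA, and is one of 17 CPEs in a 3′ UTR of 4102 bases. The *Dazl* site lies at chr17:50586780-50586809 on the minus strand, 207 bases before an AATAAA, and is one of 6 CPEs in 1911 bases. The *Ybx2* site lies at chr11:69832358-69832387 on the plus strand and is the only one in a 3′ UTR of 414 bases, which holds no listed poly(A) signal. The *Ddx6* site lies at chr9:44551189-44551218 on the plus strand, 243 bases before an AATAAA. No CPE was found in the annotated 3′ UTRs of *Zar1*, *Zar1l* and *Patl2*, which are 146, 14 and 366 bases long. These are letters of the reference transcripts, and the 3′ ends used in these oocytes were not measured.

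**Figure D1:**
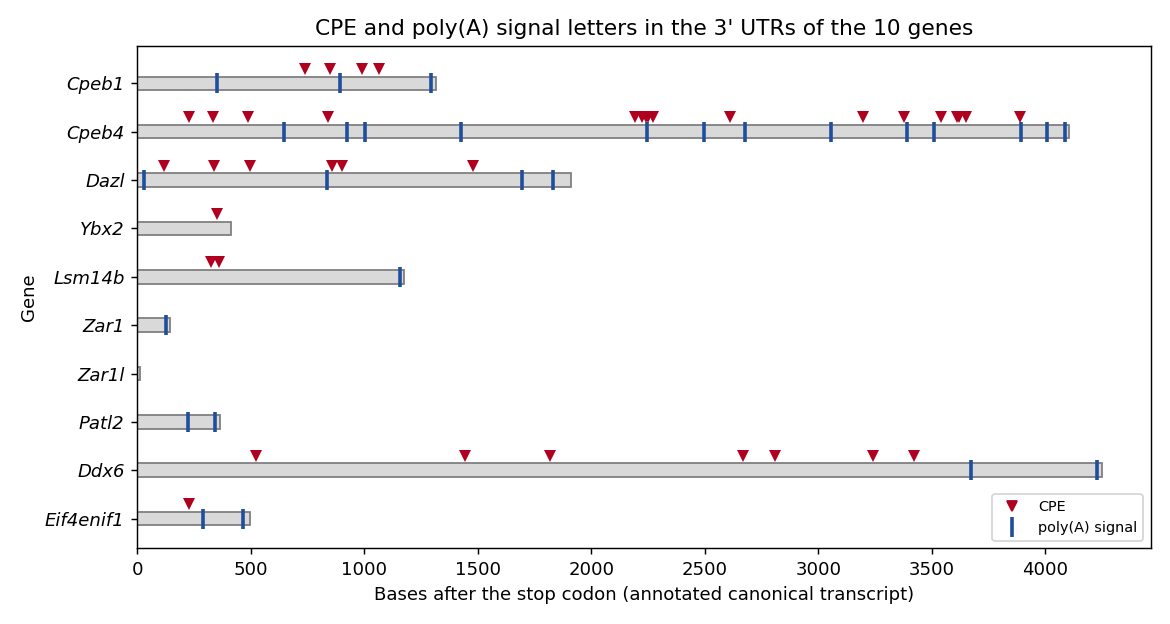
Annotated 3′ UTRs of the 10 genes drawn to scale as grey bars, with the distance from the stop codon in bases on the horizontal axis, CPE letters as red triangles and poly(A) signal letters as blue lines. *Cpeb4* holds 17 CPEs and *Ddx6* 7, and *Zar1*, *Zar1l* and *Patl2* hold 0.

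Libraries were made by the authors with the SMART-Seq v4 kit, which primes cDNA from the poly(A) tail, and read from both ends. The part of tail length in the values was not tested. The depth, worked out from the smallest steps between FPKM values, was 16500000 to 19300000 fragments in IVM libraries and 17800000 to 18100000 in IVO libraries. The mean fragment length worked out in the same way was 208 to 216 bases in IVM libraries and 248 to 264 bases in IVO libraries without overlap, and its part in the results below was not tested. Tested with limma on log2(FPKM + 1), 18818 genes had a mean FPKM of at least 1, among them all 10 genes. Over these genes the median log2FC, IVO over IVM, was -0.30 as deposited and -0.04 after median-ratio scaling, so each of the 10 genes is also given on the latter scale where this changes its reading. The FPKM summed over all listed genes was 1826738 to 2111776 in IVM libraries and 1560813 to 1643682 in IVO libraries, without overlap. All 12 oocyte markers (such as *Zp3* and *Gdf9*) were tested, with a summed FPKM of 21838 to 25053 (IVM) and 19549 to 24486 (IVO), and 7 of them had an adjusted p-value under 0.05, all lower in IVO. Of 15 cumulus and granulosa cell markers, 11 stayed under 1 FPKM in every sample, *Amh* was listed at 0 throughout, and the summed FPKM of the list was 64.2 to 66.3 (IVM) and 46.5 to 55.3 (IVO). Of the 4 that could be tested, *Nr5a2* was lower in IVO (34.0 ± 5.45 FPKM in IVM and 15.9 ± 2.21 FPKM in IVO, SD, n = 3), and *Cyp19a1*, *Fshr* and *Kitl* did not pass, with a log2FC of 0.16 to 0.22. The cumulus expansion genes *Has2*, *Ptx3* and *Tnfaip6*, too low to be tested, had all IVO values (0.07 to 0.49 FPKM) above the IVM values of the same gene (0 to 0.14 FPKM). *Ptgs2*, another expansion gene of the list, was also too low to be tested and overlapped (0.04 to 0.19 FPKM in IVM, 0.16 to 0.50 FPKM in IVO). The fragment numbers behind these low values were not worked out. The part of other cells in the results was not tested. The 5 blood cell markers summed to 0 to 1.04 FPKM (IVM) and 0.01 to 5.82 FPKM (IVO).

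Of the 10 genes, *Ybx2* and *Cpeb1* were lower after IVO and *Dazl* was higher, and the other 7 did not pass the test. The study's thresholds for a differentially expressed gene (DEG) were used, |log2FC| ≥ 1 together with an adjusted p-value under 0.05. The Benjamini-Hochberg adjustment was made over all tested genes. The study applied this rule with DESeq2, and here it was applied with limma on FPKM, so calls and totals can differ from the study's. By this rule 2 of the 10 genes were DEGs, both lower in IVO, where 18.5% of all tested genes were DEGs, 17.9% lower and 0.606% higher. At an adjusted p-value under 0.05 and any size of change, 2 were lower and 1 was higher, where 23.4% of all tested genes passed, 21.5% lower and 1.87% higher. At an unadjusted p-value under 0.05 from limma, 3 were lower and 2 were higher, against 31.4% and 5.56% of all tested genes. In 4 of the 10 genes all IVM values lay on one side of all IVO values (lower after IVO in *Ybx2* and *Cpeb1*, higher in *Dazl* and *Cpeb4*). This held for 42.2% of all tested genes, with lower IVO values in 32.6% and higher ones in 9.62%. The shares called lower among the 10 genes were thus near those of all tested genes. The median log2FC of the 10 genes was -0.21 beside -0.30 over all tested genes, which include assembled loci, and -0.18 over the 13154 tested Ensembl genes alone, of which 14.6% were DEGs lower and 0.623% DEGs higher in IVO. For the 10 genes and all tested genes, the medians with median-ratio scaling were 0.07 and -0.04.

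**Figure D2:**
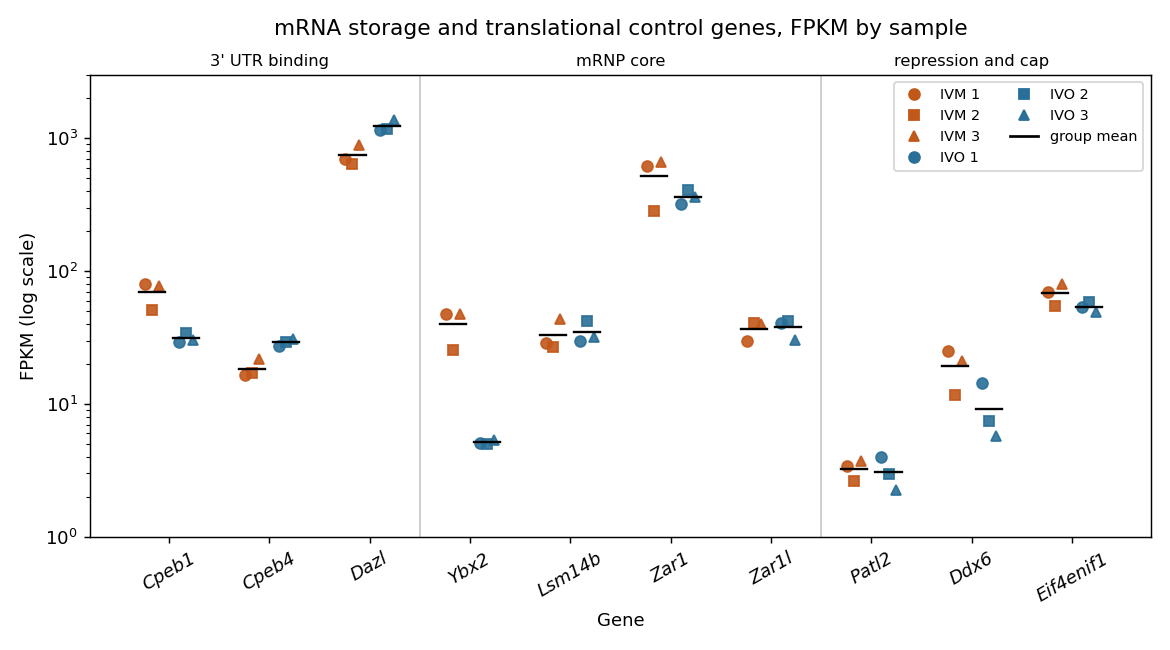
FPKM of the 10 genes on a log scale in the 3 IVM samples (orange) and the 3 IVO samples (blue), with the group means as black lines and the symbol giving the replicate number. The IVM and IVO points of *Cpeb1*, *Cpeb4*, *Dazl* and *Ybx2* are apart, and those of the other 6 genes overlap.

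The levels spanned a wide range. *Dazl* ranked first and *Zar1* second by mean FPKM in both groups, and *Patl2* was last in both. Together *Dazl* and *Zar1* held 80.0% to 82.3% of the summed FPKM of the 10 genes (IVM) and 87.7% to 90.3% (IVO). *Dazl* alone held 43.1% to 55.5% (IVM) and 65.2% to 71.3% (IVO), and these ranges did not overlap. Below them, *Cpeb1* (69.4 ± 16.1 FPKM, SD, n = 3) and *Eif4enif1* (68.1 ± 12.4 FPKM, SD, n = 3) came next in IVM, with a difference smaller than their spread. *Ybx2*, *Zar1l* and *Lsm14b* followed between 33.0 and 40.1 FPKM, also within their spread, and then *Ddx6* and *Cpeb4* at 19.3 and 18.4 FPKM, again within their spread. In IVO the order below *Zar1* was *Eif4enif1*, *Zar1l*, *Lsm14b*, *Cpeb1*, *Cpeb4*, *Ddx6* and, at 5.17 FPKM, *Ybx2*. Of these neighbours, *Zar1l* and *Lsm14b*, *Lsm14b* and *Cpeb1*, *Cpeb1* and *Cpeb4*, and *Ddx6* and *Ybx2* differed by less than the larger of their SDs. Levels are per length, and the listed lengths of *Cpeb1* (1777 bases) and *Cpeb4* (2312 bases) are shorter than their canonical transcripts (3457 and 6718 bases), so another choice of transcript would change their place.

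Among the genes of 3′ UTR binding, the log2FC of the paralogs *Cpeb1* and *Cpeb4* had opposite signs, and only *Cpeb1* passed the test. *Cpeb1* (ENSMUSG00000025586, chromosome 7, 80996774 to 81105213) encodes the founding CPE-binding protein, which represses stored messages in the arrested oocyte and is degraded as maturation proceeds. Its values were 80.2, 50.9 and 77.1 FPKM after IVM against 29.4, 34.0 and 30.3 FPKM after IVO. Every IVO value lay below every IVM value, and the IVO values were close to each other. The mean was 2.22-fold higher in IVM, and the log2FC was -1.10 (standard error 0.23, 95% interval -1.63 to -0.57, adjusted p = 0.0146 from limma). With median-ratio scaling the log2FC was -0.79 (adjusted p = 0.0450 from limma), under the fold threshold, and with quantile normalization it was -0.63 (adjusted p = 0.0755 from limma). With all libraries scaled to the same sum it was -0.77 (adjusted p = 0.0731 from limma). Without the first IVM sample the log2FC was -0.98 (adjusted p = 0.0482 from limma), and *Cpeb1* was then no DEG.

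*Cpeb4* (ENSMUSG00000020300, chromosome 11, 31821811 to 31885634) encodes another CPE-binding protein. Its values were 16.5, 17.1 and 21.7 FPKM after IVM against 27.5, 29.2 and 30.8 FPKM after IVO, with every IVO value above every IVM value. Its log2FC was 0.64 (standard error 0.19, 95% interval 0.19 to 1.09, adjusted p = 0.0501 from limma), which just missed the threshold. With median-ratio scaling it was 0.95 (adjusted p = 0.0182 from limma) and with quantile normalization 1.14 (adjusted p = 0.0103 from limma), and it was positive in all 17 alternatives tried. Without the third IVM sample it was 0.76 and passed the test (adjusted p = 0.0392 from limma), while the other 5 fits that left out 1 sample had an adjusted p of 0.102 to 0.136 from limma. With the length trend removed it was 0.43 (adjusted p = 0.127 from limma). A ratio of 2 genes within a library depends little on how libraries are scaled to each other. The log2 ratio of *Cpeb1* to *Cpeb4* (of FPKM + 1) was 2.21, 1.52 and 1.79 after IVM against 0.10, 0.22 and -0.02 after IVO. *Cpeb1* was thus listed above *Cpeb4* in every IVM sample, and the 2 were close to equal in every IVO sample. The difference was -1.74 on the log2 scale, and an exact two-sided permutation test gave p = 0.1, the smallest that 3 against 3 samples allow. The same difference lay between -1.90 and -1.56 when each sample was left out in turn.

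*Dazl* (ENSMUSG00000010592, chromosome 17, 50586366 to 50600664) encodes a germ cell RNA-binding protein that promotes translation of its targets during maturation. Its values were 700, 640 and 885 FPKM after IVM against 1156, 1172 and 1362 FPKM after IVO. Every IVO value lay above every IVM value, and the mean FPKM in IVO was 1.66 times that in IVM. The log2FC was 0.74 (standard error 0.17, 95% interval 0.34 to 1.14, adjusted p = 0.0220 from limma), under the fold threshold of a DEG. The call at an adjusted p-value under 0.05 was lost in 5 of the 6 fits that left out 1 sample, in all but that without the third IVM sample, where the log2FC stayed between 0.64 and 0.87. It was also lost without a filter on low genes (adjusted p = 0.0514 from limma) and with the length trend removed (log2FC 0.51, adjusted p = 0.0538 from limma). With median-ratio scaling *Dazl* was a DEG higher in IVO (log2FC 1.06, adjusted p = 0.0114 from limma).

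**Figure D3:**
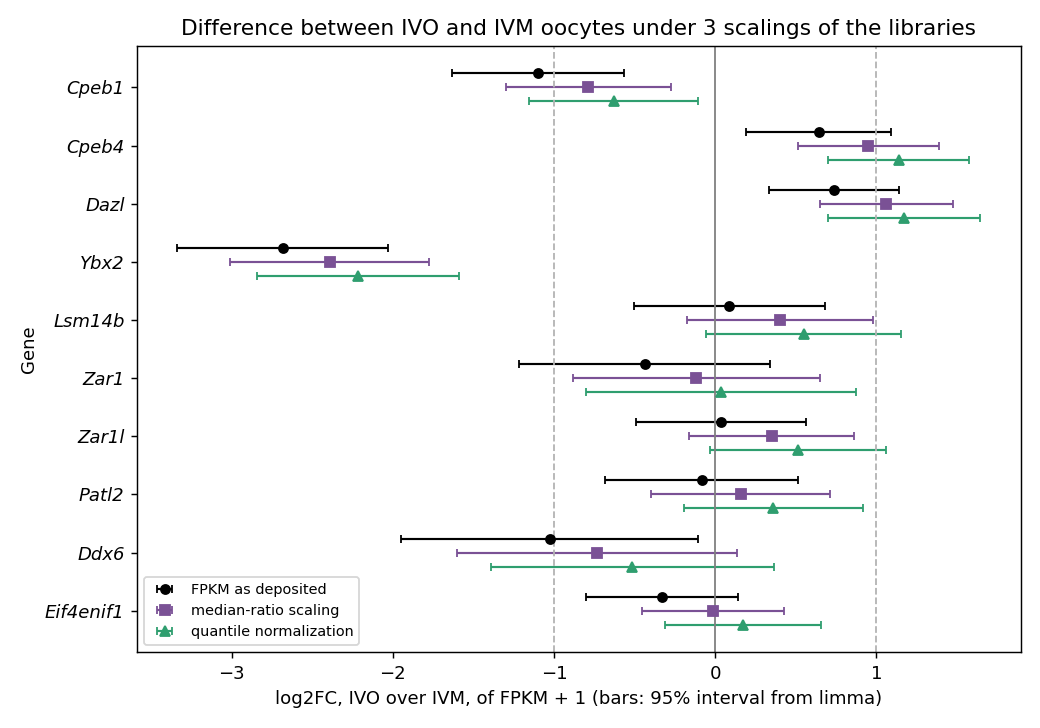
The log2FC of FPKM + 1, IVO over IVM, of the 10 genes with the 95% interval from limma, for the FPKM as deposited (black circles), after median-ratio scaling (purple squares) and after quantile normalization (green triangles), with dashed lines at -1 and 1. *Ybx2* lies beyond -2 in all 3, *Cpeb4* and *Dazl* stay above 0 with their intervals, and the points of *Zar1*, *Patl2* and *Eif4enif1* are negative with the FPKM as deposited and positive with quantile normalization.

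Among the ribonucleoprotein genes, *Ybx2* had the most negative log2FC of the 10 genes. *Ybx2* (ENSMUSG00000018554, chromosome 11, 69826474 to 69832432), also known as Msy2, encodes the germ cell Y-box protein, an abundant mRNA-binding protein of growing oocytes that stabilizes stored messages. Its values were 47.8, 25.4 and 47.3 FPKM after IVM against 5.13, 4.99 and 5.40 FPKM after IVO. These correspond to about 720 to 1330 fragments in an IVM and 127 to 139 in an IVO library, which is far above the 3 fragments taken as a floor. The groups were far apart, the IVO values were close to each other, and the mean was 7.76-fold higher in IVM. The log2FC was -2.68 (standard error 0.28, 95% interval -3.34 to -2.03, adjusted p = 0.00175 from limma). *Ybx2* was a DEG in all 17 alternatives tried, with a log2FC from -2.97 to -2.22. Its exons share 698 bases with those of *Eif5a* on the opposite strand, and the counting is not stated to use strand, so reads of the shared bases cannot be told apart. *Eif5a* measured 228, 104 and 195 FPKM after IVM against 249, 289 and 230 FPKM after IVO (log2FC 0.61, adjusted p = 0.191 from limma), and the part of the shared bases in the *Ybx2* values was not tested. Exons of *Ddx6*, *Lsm14b*, *Cpeb4* and *Ybx2* share 979, 303, 264 and 64 bases with long noncoding RNA genes on the opposite strand. These noncoding genes have no FPKM listed, and their part was not tested either. The *Ybx2* paralogs *Ybx1* and *Ybx3* did not pass the test, with a log2FC of -0.12 (adjusted p = 0.730 from limma) and -0.77 (adjusted p = 0.250 from limma).

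*Zar1* (ENSMUSG00000063935, chromosome 5, 72734149 to 72738597) and *Zar1l* (ENSMUSG00000056586, chromosome 5, 150430520 to 150441629) encode related zinc finger proteins that bind maternal messages, and the loss of *Zar1* arrests embryos at their first divisions. *Zar1* stood at 623, 282 and 660 FPKM after IVM against 318, 405 and 362 FPKM after IVO, and the groups overlapped through the second IVM sample. Its log2FC was -0.44 (95% interval -1.22 to 0.34, adjusted p = 0.388 from limma). Without that sample the log2FC was -0.83 (adjusted p = 0.0293 from limma), and with quantile normalization it was 0.04. The second IVM sample was the lowest of its group in 8 of the 10 genes and in 37.8% of all tested genes, and its part in these values was not tested. *Zar1* is 95.2% identical over 1083 aligned bases to the pseudogene *Zar1-ps*, which was listed at 0 to 0.61 FPKM. It is also 94.2% identical over 344 aligned bases to a long noncoding RNA gene that has no FPKM listed. The part of these copies in the *Zar1* values was not tested. *Zar1l* stood at 29.6, 40.5 and 39.8 FPKM after IVM against 40.8, 42.0 and 30.1 FPKM after IVO. The groups of *Zar1l* overlapped, with a log2FC of 0.04 and a 95% interval of -0.49 to 0.56. The log2 ratio of *Zar1* to *Zar1l* averaged 3.71 ± 0.84 (SD, n = 3) after IVM against 3.24 ± 0.31 (SD, n = 3) after IVO, and the difference did not exceed the spread (exact two-sided permutation test, p = 0.4).

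*Lsm14b* (ENSMUSG00000039108, chromosome 2, 179666232 to 179677259) encodes an oocyte-enriched member of the RAP55 family found in ribonucleoprotein particles. Its values were 28.7, 26.9 and 43.3 FPKM after IVM against 29.8, 42.4 and 32.0 FPKM after IVO, and the groups overlapped. Its log2FC was 0.09 (95% interval -0.51 to 0.68, adjusted p = 0.837 from limma). Its paralog *Lsm14a* stood at 331 ± 53.8 FPKM (SD, n = 3) after IVM and 450 ± 29.5 FPKM (SD, n = 3) after IVO, a log2FC of 0.45 that did not pass the test (adjusted p = 0.101 from limma).

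None of the 3 genes of repression and cap blocking passed the test, and all 3 had a negative log2FC with the FPKM as deposited. *Ddx6* (ENSMUSG00000032097, chromosome 9, 44514963 to 44552028) encodes a DEAD-box RNA helicase that represses translation and links messages to decay. Its values were 25.1, 11.7 and 21.1 FPKM after IVM against 14.3, 7.41 and 5.74 FPKM after IVO. The highest IVO value lay above the lowest IVM value, while the means differed 2.11-fold. The log2FC was -1.03 (standard error 0.39, 95% interval -1.95 to -0.11, adjusted p = 0.103 from limma). With median-ratio scaling it was -0.73 (adjusted p = 0.187 from limma) and with quantile normalization -0.51 (adjusted p = 0.324 from limma). Without the first IVO sample it was -1.37 and passed the test (adjusted p = 0.0482 from limma), while the other 5 fits that left out 1 sample gave -1.33 to -0.78 and did not. With the length trend removed the log2FC was -1.29, which passed with the replicate block (adjusted p = 0.0390 from limma) and not without it (adjusted p = 0.0534 from limma).

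*Eif4enif1* (ENSMUSG00000020454, chromosome 11, 3152235 to 3194588) encodes 4E-T, which binds the cap-binding protein eIF4E and keeps it from initiation. Its values were 70.0, 54.9 and 79.4 FPKM after IVM against 53.6, 58.1 and 48.9 FPKM after IVO, and the groups overlapped. The log2FC was -0.33 (95% interval -0.80 to 0.14, adjusted p = 0.284 from limma), and it was -0.01 with median-ratio scaling. *Patl2* (ENSMUSG00000027233, chromosome 2, 121950589 to 122016689) encodes the oocyte form of the Pat1 protein, a translational repressor. It measured 3.41, 2.65 and 3.74 FPKM after IVM against 3.98, 2.97 and 2.24 FPKM after IVO, about 88.2 to 159.9 fragments per library. The groups of *Patl2* overlapped, and its log2FC was -0.08 (95% interval -0.68 to 0.51, adjusted p = 0.846 from limma).

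**Figure D4:**
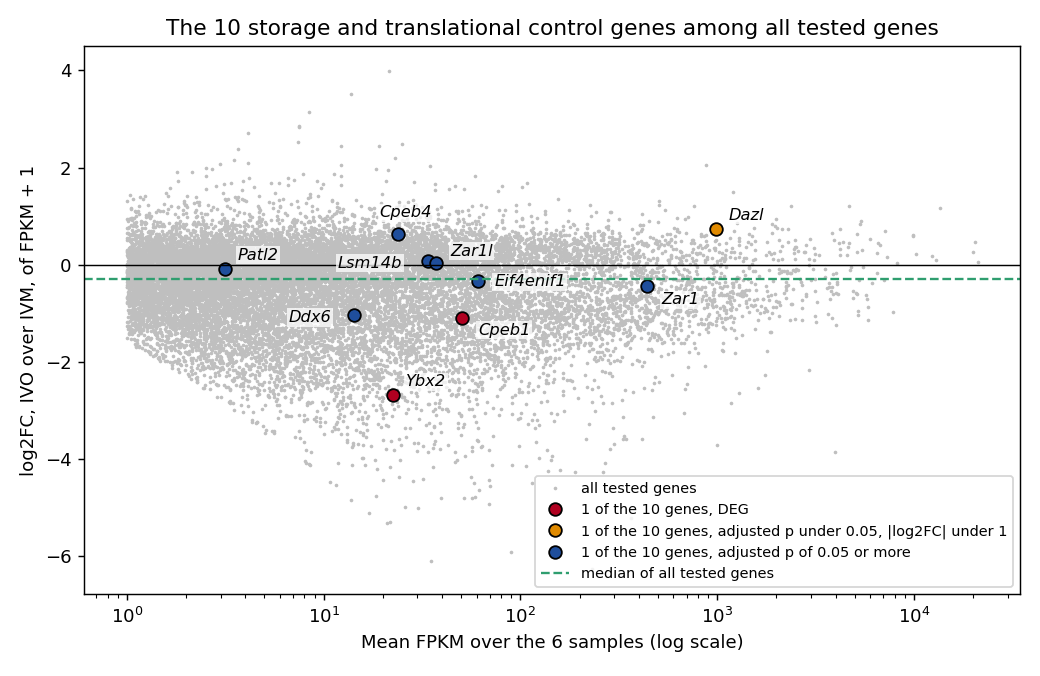
The log2FC of FPKM + 1, IVO over IVM, against the mean FPKM over the 6 samples on a log scale, for all 18818 tested genes (grey) and the 10 genes (coloured by their call), with the median of all tested genes as a dashed line at -0.30. *Ybx2* and *Cpeb1* (red) lie below -1, *Dazl* (orange) lies at 0.74, and the other 7 (blue) did not pass the test.

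For *Ybx2* and *Dazl*, the tested Ensembl genes most alike over the 6 samples were found by Pearson's r of log2(FPKM + 1), given as a description. The 3 most like *Ybx2* were *Traf3ip1*, *Gm23839* and *Cabp1*, each with r = 0.999. *Traf3ip1* had 4.29 FPKM on average in IVM and 1.99 in IVO samples. The 3 most like *Dazl* were *Tmtc3* (r = 0.995), *Eif3a* (r = 0.994) and *Gm7437* (r = 0.994). *Eif3a*, a subunit of the initiation factor that joins the small ribosomal subunit to mRNA, had 17.5 FPKM on average in IVM and 26.9 in IVO samples. Of the 13153 genes compared, 829 had r above 0.95 with *Ybx2* and 168 with *Dazl*, and the points share the division into groups.

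Beyond the 10 genes, 51 related genes of storage and translational control were looked up, of which 43 were tested. Of these, 6 were DEGs and all 6 were lower in IVO, against 17.9% lower over all tested genes. At an unadjusted p-value under 0.05 from limma, 12 were lower and 4 higher, against 31.4% and 5.56% of all tested genes. The median log2FC over the 43 genes was -0.12, beside -0.30 over all tested genes and -0.18 over the tested Ensembl genes. The RNA-binding regulators held 4 of the DEGs among 21 tested genes. *Samd4b*, a Smaug relative that represses its target messages, went from 445 ± 178 FPKM (SD, n = 3) after IVM to 68.7 ± 33.4 FPKM (SD, n = 3) after IVO (log2FC -2.71, adjusted p = 0.00486 from limma). *Caprin1*, a partner of stress granule proteins, had a mean of 246 ± 117 FPKM (SD, n = 3) after IVM and 48.0 ± 25.1 FPKM (SD, n = 3) after IVO (log2FC -2.40, adjusted p = 0.0150 from limma). *Rbpms2* and *Fxr2* were the other two, with a log2FC of -1.83 and -1.49. *Pum2*, a Pumilio protein that binds 3′ UTRs, was higher in IVO with a mean of 14.5 ± 3.46 FPKM (SD, n = 3) after IVM and 26.0 ± 0.317 FPKM (SD, n = 3) after IVO (log2FC 0.83, adjusted p = 0.0334 from limma). *Cpeb2* and *Cpeb3*, the other members of the CPEB family, had a log2FC of -0.50 (adjusted p = 0.401 from limma) and -0.29 (adjusted p = 0.340 from limma).

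Of the 9 tested cap-binding genes, *Eif4ebp2* was a DEG and *Eif4g3* passed the adjusted p-value alone, both lower in IVO. *Eif4ebp2*, which encodes an eIF4E-binding inhibitor of initiation, lay between 11.96 and 13.62 FPKM after IVM and between 0.85 and 3.84 FPKM after IVO (adjusted p = 0.0117 from limma). *Eif4g3*, a scaffold of the initiation complex, had a mean of 932 ± 136 FPKM (SD, n = 3) after IVM and 504 ± 80.1 FPKM (SD, n = 3) after IVO (log2FC -0.89, adjusted p = 0.0150 from limma). Of the 8 tested genes of cytoplasmic polyadenylation, *Parn*, a poly(A)-specific deadenylase, was a DEG lower in IVO (log2FC -1.42, adjusted p = 0.0475 from limma), and *Wdr33*, a subunit of the complex that reads the poly(A) signal, was higher (log2FC 0.59, adjusted p = 0.0365 from limma). With median-ratio scaling *Parn* (adjusted p = 0.121 from limma) and *Eif4g3* (log2FC -0.57, adjusted p = 0.0952 from limma) lost their calls and *Pum2* was a DEG higher in IVO, and the same held with quantile normalization. *Wdr33* kept its call with median-ratio scaling (log2FC 0.91, adjusted p = 0.0172 from limma). With quantile normalization *Wdr33* (log2FC 1.11, adjusted p = 0.00657 from limma) and *Elavl1* (log2FC 1.01, adjusted p = 0.0145 from limma) were DEGs higher in IVO. With the length trend removed *Wdr33* (log2FC 0.33, adjusted p = 0.243 from limma) and *Pum2* (log2FC 0.58, adjusted p = 0.0703 from limma) lost theirs. *Tent2*, the cytoplasmic poly(A) polymerase GLD2, had a log2FC of -0.17 (adjusted p = 0.555 from limma). None of the 5 tested paralogs and partners of the 10 genes had an adjusted p-value under 0.05 from limma, with 1 lower and 1 higher at an unadjusted p-value under 0.05.

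The list of 10 messages known to be stored and then translated during maturation held 0 DEGs by limma, where 18.5% of all tested genes were DEGs. At an unadjusted p-value under 0.05 from limma, 2 were lower and 2 higher, against 31.4% and 5.56% of all tested genes. *Plat*, the tissue plasminogen activator and a classical CPE-regulated message, was lower in IVO at 359, 441 and 561 FPKM against 810, 663 and 912 FPKM in IVM (log2FC -0.82, adjusted p = 0.0327 from limma). *Slbp*, the histone stem-loop binding protein, was higher in IVO at 2516, 2362 and 2686 FPKM against 1729, 1630 and 1177 FPKM in IVM (log2FC 0.76, adjusted p = 0.0232 from limma). *Mos*, the kinase of metaphase arrest, had a mean of 570 ± 202 FPKM (SD, n = 3) after IVM and 302 ± 40.6 FPKM (SD, n = 3) after IVO without passing the adjusted test (log2FC -0.86, adjusted p = 0.0609 from limma). *Ccnb1*, *Btg4*, *Tpx2*, *Tex19.1*, *Dcp1a* and *Dcp2* had a log2FC between -0.40 and 0.26, and *Cnot7* had 0.44. With median-ratio scaling *Slbp* was a DEG higher in IVO (log2FC 1.08, adjusted p = 0.0172 from limma), and with the length trend removed it was 0.55 (adjusted p = 0.0858 from limma). *Plat* lost its call with median-ratio scaling (log2FC -0.50, adjusted p = 0.154 from limma) and with quantile normalization (log2FC -0.35, adjusted p = 0.280 from limma), while *Mos* and *Plat* were DEGs lower in IVO with the length trend removed.

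**Figure D5:**
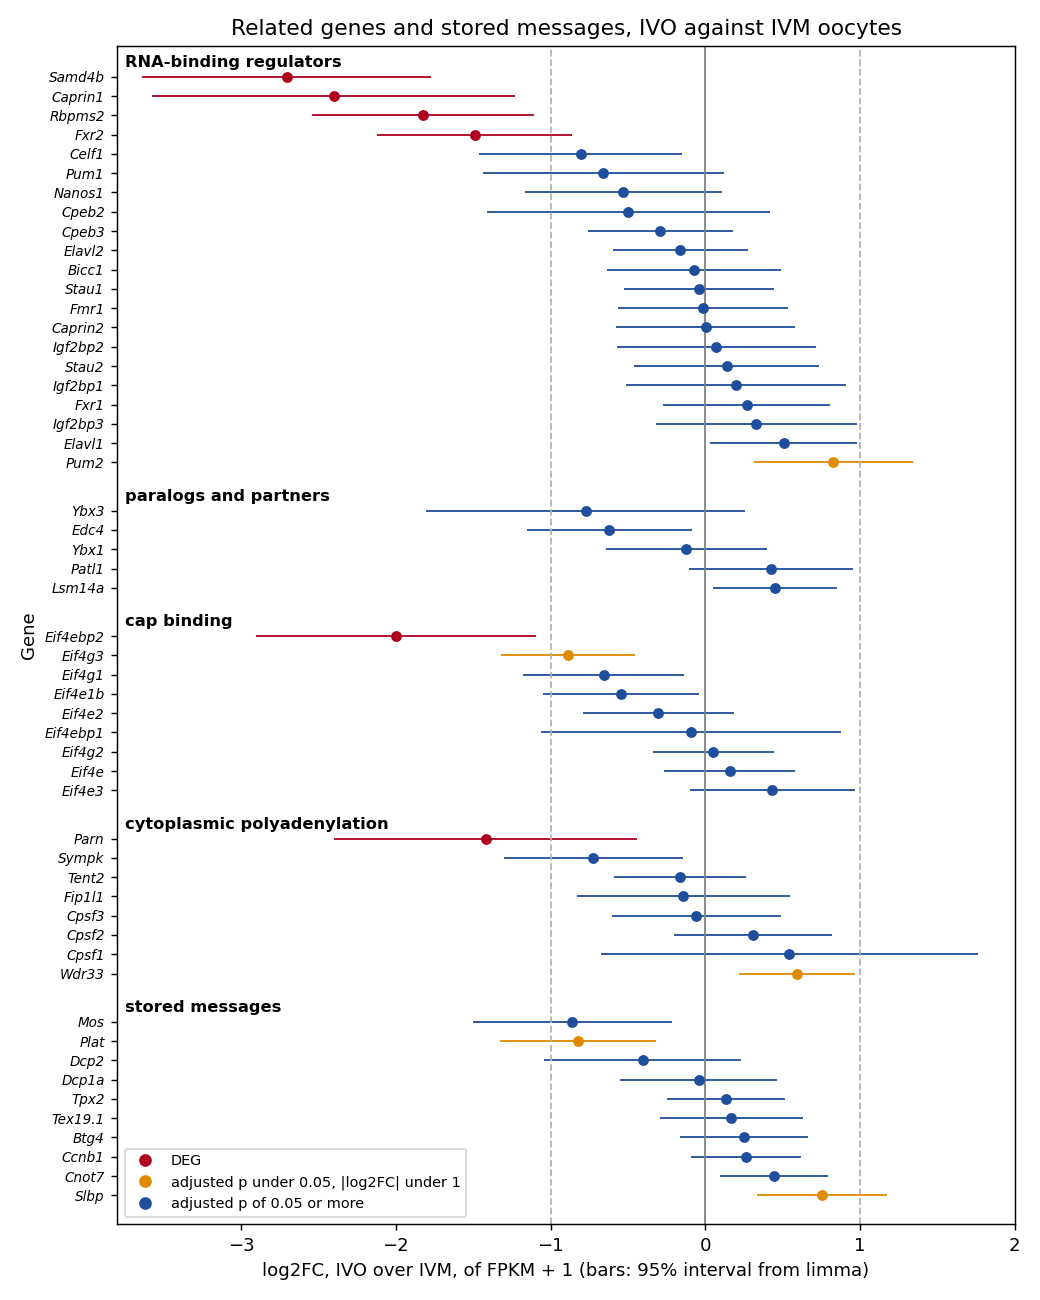
The log2FC of FPKM + 1, IVO over IVM, with the 95% interval from limma for the 43 tested related genes and the 10 stored messages, grouped by role and coloured by their call, with dashed lines at -1 and 1. The 6 DEGs (red) all lie below -1, and of the 5 genes that passed the adjusted p-value alone (orange) *Pum2*, *Wdr33* and *Slbp* lie above 0.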

How the data were processed

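RNA-seq was measured in 6 pooled samples of MII oocytes, 3 IVM and 3 IVO, grouped by the sample titles. The authors cleaned the reads (SeqPrep, Sickle), mapped them on GRCm39 (HISAT2 2.1.0) and deposited FPKM values made with RSEM 1.3.3; versions are those of the submitters' processing notes. The deposited group means were not used. SMART-Seq v4 primes cDNA from the poly(A) tail, so tailless messages are not measured. FPKM entered limma 3.58.1 (R 4.3.3; lmFit, eBayes with trend) as log2(FPKM + 1) where the mean FPKM reached 1, with group as the only term. P-values are two-sided, and the Benjamini-Hochberg adjustment ran over all tested genes. The fit was tested on simulated data. Depth and fragment length were fitted to the lowest FPKM values of single-transcript genes, of which 71.8% to 73.0% came out within 0.1 of a whole fragment. Fragment numbers and floors cover counting error only. Sequences and coordinates are those of the GENCODE annotation of GRCm39. The text names the 10 genes, genes of the 2 lists with an adjusted p-value under 0.05, and the 3 genes most alike to *Ybx2* and *Dazl*, and other list genes as context. The 17 alternatives changed the pseudocount (0.1), the filter (none, or a mean of 5 FPKM), the scaling (median-ratio, quantile, or one sum for all libraries), the trend in eBayes, the block (replicate number), the trend with length in each library (removed by lowess, span 0.3, without and with the block), the genes (Ensembl only) or the samples (each left out). The genes and lists were chosen with earlier results of these data known. Whether samples came from separate days is not given in the sources used here.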

Additional observations from a re-analysis of the deposited data

How the results depend on the processing

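The log2FC of *Ybx2*, *Cpeb1*, *Ddx6*, *Cpeb4* and *Dazl* kept its sign in all 17 alternatives. The number of DEGs among the 10 genes was 1 to 3 with each sample left out in turn, and 2 or 3 in the other 11 alternatives. These were not always the same genes: with median-ratio scaling and with the same sum they were *Ybx2* and *Dazl*, and with quantile normalization *Cpeb4* as well. With the length trend removed with the replicate block they were *Ybx2*, *Cpeb1* and *Ddx6*. Over all tested genes, the share of DEGs that were lower in IVO was 96.7% as deposited, 84.6% with median-ratio scaling, 84.3% with the same sum and 59.0% with quantile normalization, and Ensembl genes only gave 2056 DEGs in place of 3480, with fewer genes tested. The stored messages held 1 DEG with median-ratio scaling, quantile normalization, the same sum, and the length trend removed with the replicate block, 2 with the length trend removed, and 0 to 1 with each sample left out. The sign turned in *Lsm14b* (-0.13 with the length trend removed, with or without the block, and -0.0601 to 0.30 with each sample left out), *Zar1* (0.0358 with quantile normalization), *Zar1l* (-0.0189 with the length trend removed, with or without the block, and -0.11 to 0.19 with each sample left out), *Patl2* (0.16 with median-ratio scaling, 0.36 with quantile normalization, 0.17 with the same sum, and -0.24 to 0.0681 with each sample left out) and *Eif4enif1* (0.17 with quantile normalization, 0.0025 with the same sum). The cause of these turns was not tested. *Patl2* could not be fitted at a mean FPKM of at least 5. Whether the replicate numbers pair samples is not known. The correlation of the deviations of same-numbered samples was -0.06, -0.02 and -0.11, and no sample correlated best with its own number. Deviations from a mean of 3 samples depend on each other, so these correlations cannot decide it. The replicate block left 2 DEGs among the 10 genes, 2991 over all tested genes, 6 among the related genes and 0 among the stored messages. With 3 samples a group the 95% intervals of the log2FC were wide. Among the 10 genes the narrowest was that of *Dazl* (0.34 to 1.14) and the widest that of *Ddx6* (-1.95 to -0.11). Small changes could therefore be missed.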
